A study of Mus musculus with 6 samples.

Results

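The gene encoding the glucocorticoid receptor, Nr3c1, was examined in lung interstitial macrophages together with 9 genes of its response, namely Fkbp5, Zbtb16, Tsc22d3, Klf9, Sgk1, Ddit4, Errfi1, Cdkn1a and Fkbp4. They are 10 of the 21965 genes in the count table, and their rows were found by matching Ensembl identifiers to these mouse symbols. All 10 passed the filter on low counts, and the lowest count of any of them in any library was 295. The set was picked on measured values, because Fkbp5 and Zbtb16 were lower after treatment in these same libraries. The treatment values of the 10 genes are therefore given as a description, without p-values, and they are not independent evidence of a direction.

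The glucocorticoid receptor is a steroid-activated transcription factor. Without hormone it is held in the cytoplasm by the chaperone Hsp90 and cochaperones, among them the immunophilins FKBP51 (Fkbp5) and FKBP52 (Fkbp4). FKBP51 lowers the affinity of the receptor for hormone, and FKBP52 favours its transport to the nucleus. There the receptor binds response elements and induces genes, Fkbp5 itself included, which makes a negative feedback loop. In macrophages glucocorticoids are known for restraining cytokine genes and for raising genes of scavenging and of the uptake of dying cells.

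The libraries came from interstitial macrophages, which reside in lung tissue rather than in the airspaces and were sorted with labelled antibodies from digested lungs of C57Bl/6 mice aged 6 to 8 weeks. The animals received either 1 mg of WGP, a particulate β-glucan of yeast cell walls, or phosphate-buffered saline (PBS) by intraperitoneal injection. The treatment is given as 6 days, and lungs were taken on day 7. No allele or transgene is named for either group. There were 3 libraries a group, and the labels do not say how many mice each held, so errors and p-values reflect variation among these libraries alone, and that variation may be technical. The comparison addresses how β-glucan, an inducer of trained immunity, altered transcripts of lung interstitial macrophages ahead of metastasis.

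Levels are CPM, read counts scaled by TMM (edgeR's library scaling) to a common library size, as mean ± SD with n = 3, and log2 fold changes are WGP over PBS ± SE from a fit over all genes. A gene is said to have passed, and to have risen or fallen, where its p, adjusted by Benjamini-Hochberg over 12305 genes, was under 0.05 in the quasi-likelihood test of edgeR. Library totals ran from 18254678 to 20346517 counts. In all, 31.0% of the genes tested passed, 15.2% higher and 15.7% lower, and for 48.1% the WGP and PBS libraries did not overlap. With library sizes alone as scaling, 33.5% in place of 49.2% of the changed genes were higher, and all genes had a median fold change of -0.12 in place of -0.02 (log2). Of 18 interstitial macrophage markers, 3 rose, 4 fell and 11 did not pass. The WGP libraries lay wholly above the PBS libraries for 3, wholly below for 8, and overlapped them for 7. Among those that did not pass, C1qa went from 517 ± 56.2 to 208 ± 105 CPM and C1qb from 508 ± 54.8 to 206 ± 106 CPM. C1qc, not passing either, went from 466 ± 65.3 to 174 ± 90.7 CPM. Csf1r, Adgre1 and Cd68 had 385 CPM or more in every library. Csf1r rose from 2355 ± 199 to 2964 ± 23.1 CPM, Cx3cr1 from 259 ± 69.0 to 460 ± 45.5 CPM and Fcgr1 from 100 ± 14.4 to 206 ± 19.4 CPM. Mrc1 fell from 840 ± 112 to 199 ± 79.4 CPM and Ms4a7 from 28.4 ± 3.43 to 12.2 ± 3.90 CPM, and Apoe and Tmem176a fell too. Y-linked transcripts stood apart, with 112, 179 and 9.78 CPM in PBS replicates 1, 2 and 3 and 205 to 227 CPM after WGP. All WGP libraries thus lay above all PBS libraries in this level, and what underlies it cannot be fully told apart from the treatment. Values without PBS replicates 1 and 3, the lowest in Y-linked transcripts, are therefore given beside those of the 10 genes.

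Promoter sequences were searched for the receptor's response element, here AGAACA and, after any 3 bases, its reverse complement TGTTCT. RefSeq sequences of GRCm38.p6, from 250 bases before to 50 after a start site, were at hand for 8 of the 10 genes, in 17 windows (Nr3c1 and Zbtb16 are not in the table). This whole element, searched on both strands, was in 3 of all 32851 windows (0.01%). One of these was a window of Sgk1, which holds it at -189 from its start site, at chr10:21993701-21993715. That is 965 bases before the start site of the next Sgk1 window, and counts per gene do not tell which start was used. The 3 whole elements are printed because they are so few.
Sgk1: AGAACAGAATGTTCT
Acnat2: AGAACACAATGTTCT
Gm35041: AGAACACGGTGTTCT

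The AGAACA hexamer alone, which the whole element holds on each strand, was in 4 of the 17 windows (23.5%), 3 of Sgk1 and 1 of Tsc22d3, and in 18.97% of all windows. A looser form, ACA and TGT around any 3 bases, which the whole element also contains, was in 2 of the 17 windows (11.8%), both of Sgk1, and in 6.85% of all windows. Below are 3 windows, chosen for holding the whole element (Sgk1, chr10:21993640-21993939, plus strand), the hexamer alone (Tsc22d3, chrX:140600473-140600772, minus strand, hexamer at -185) or neither (Fkbp5, chr17:28486100-28486399, minus strand). Capitals mark the hexamer on either strand and the 3 bases inside an element. A window without a match says only that these letters are not in it.
Sgk1: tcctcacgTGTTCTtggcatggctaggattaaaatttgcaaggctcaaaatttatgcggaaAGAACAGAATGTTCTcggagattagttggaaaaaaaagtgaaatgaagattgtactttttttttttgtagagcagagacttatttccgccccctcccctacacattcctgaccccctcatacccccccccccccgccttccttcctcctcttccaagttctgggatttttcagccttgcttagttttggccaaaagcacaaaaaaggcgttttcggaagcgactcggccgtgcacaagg
Tsc22d3: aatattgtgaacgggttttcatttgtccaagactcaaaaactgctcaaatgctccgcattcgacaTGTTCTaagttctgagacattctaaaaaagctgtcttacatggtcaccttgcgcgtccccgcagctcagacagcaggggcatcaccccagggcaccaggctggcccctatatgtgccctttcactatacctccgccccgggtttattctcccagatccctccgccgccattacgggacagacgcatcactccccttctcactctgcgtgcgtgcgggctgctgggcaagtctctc
Fkbp5: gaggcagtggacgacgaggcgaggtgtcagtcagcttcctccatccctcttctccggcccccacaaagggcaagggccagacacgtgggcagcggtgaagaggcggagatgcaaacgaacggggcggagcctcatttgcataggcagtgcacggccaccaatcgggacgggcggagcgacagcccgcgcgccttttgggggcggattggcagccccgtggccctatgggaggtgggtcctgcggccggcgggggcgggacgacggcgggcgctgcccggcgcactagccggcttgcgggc

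Across the set, the levels of the receptor transcript overlapped between the groups while several of its targets and cochaperones were lower after WGP. Of the 10 genes 6 were called lower (Fkbp5, Sgk1, Fkbp4, Errfi1, Zbtb16 and Cdkn1a), none was called higher, and 4 were not called, beside 15.7% of all genes tested called lower. The WGP libraries lay wholly below the PBS libraries for 7 of the 10, beside 48.1% of all genes not overlapping in either direction. The median log2 fold change was -1.03, beside -0.02 for all genes tested. Since this contrast chose the set, nothing is read from these shares.

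**Figure D1:**
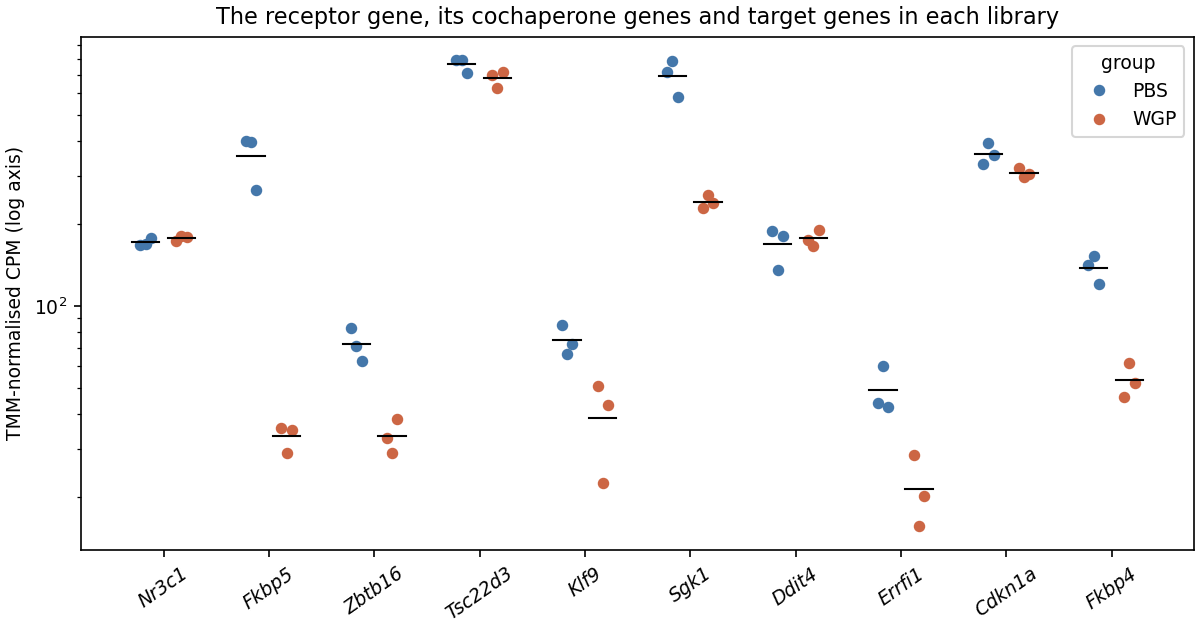
TMM-normalised CPM (log axis) of the 10 genes in the 3 PBS and 3 WGP libraries, each point 1 library in the order of replicates 1 to 3, with a line at the group mean. Nr3c1 lies at 167 to 180 CPM in all 6 libraries, whereas Fkbp5 lies at 266 to 400 CPM after PBS and at 28.9 to 35.6 CPM after WGP.

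Nr3c1 (ENSMUSG00000024431, GRCm38 chromosome 18, 39410545 to 39519421, minus strand, as the whole gene in GENCODE M21, like all gene positions here) varied least of the 10 genes within either group, with coefficients of variation of 3.48% and 2.21%. It stood at 167, 168 and 178 CPM in PBS replicates 1, 2 and 3 and at 173, 180 and 179 CPM in WGP replicates 1, 2 and 3. The 6 libraries interleave. The group means were 171 ± 5.94 and 177 ± 3.92 CPM, a log2 fold change of 0.05 ± 0.07, which was not called. Its sign turned with upper quartile scaling (-0.0071) and with library sizes alone (-0.048), and it was not called under any of 17 alternatives (0.08 without PBS replicates 1 and 3).

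The immunophilins came next in the chaperone cycle, and both were lower. Fkbp5 (ENSMUSG00000024222, chromosome 17, 28399094 to 28517527) had 400, 399 and 266 CPM after PBS and 35.6, 28.9 and 35.1 CPM after WGP. The groups did not overlap, PBS replicate 3 was the low library of its group, and the 3 WGP libraries were close together. The WGP mean of 33.2 ± 3.71 CPM was 9.36% of the PBS mean of 355 ± 77.0 CPM, a log2 fold change of -3.42 ± 0.19. Of the 12305 genes tested it had the 149th lowest fold change. It was -3.58 without PBS replicates 1 and 3, and between -3.59 and -3.32 with any 1 library left out.

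Fkbp4 (ENSMUSG00000030357, chromosome 6, 128429735 to 128438677) had 141, 152 and 120 CPM after PBS and 46.5, 62.0 and 52.0 CPM after WGP. These groups did not overlap either, and the log2 fold change was -1.36 ± 0.12 (-1.51 without PBS replicates 1 and 3). Per kilobase of exon, Fkbp5 stood at 0.84, 0.77 and 0.66 times the level of Fkbp4 in PBS replicates 1, 2 and 3 and at 0.23, 0.14 and 0.20 times that level in the WGP libraries. These ratios contain the Fkbp5 level on which the set was picked. Relative to Nr3c1, Fkbp5 per kilobase went from 1.70 ± 0.42 to 0.15 ± 0.02 times the receptor's level.

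Sgk1 (ENSMUSG00000019970, chromosome 10, 21882184 to 21999903) encodes a kinase that regulates ion transport and cell survival, and it is the gene with the whole response element printed above. It had 716, 789 and 583 CPM after PBS and 229, 255 and 238 CPM after WGP. The WGP libraries differed by little beside their distance from the lowest PBS library. The log2 fold change was -1.53 ± 0.11, and -1.71 without PBS replicates 1 and 3.

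Zbtb16 (ENSMUSG00000066687, chromosome 9, 48654297 to 48836222) encodes PLZF, a zinc finger repressor that is strongly induced by glucocorticoids in many tissues and also drives innate-like lymphocytes. It had 82.9, 71.0 and 63.0 CPM after PBS and 32.9, 28.8 and 38.4 CPM after WGP, without overlap. The log2 fold change was -1.12 ± 0.13, and -1.09 without PBS replicates 1 and 3. Of 16 markers of T, NK and innate lymphoid cells 3 fell, their summed level was 200 to 282 CPM after PBS and 33.3 to 149 CPM after WGP, and Cd3d and Cd3g had no count in WGP replicate 1. In that library, the lowest in lymphoid markers, Zbtb16 stood between its levels in WGP replicates 2 and 3. The part of lymphoid cells in the Zbtb16 value was not tested.

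Errfi1 (ENSMUSG00000028967, chromosome 4, 150853919 to 150868892), a feedback inhibitor of the EGF receptor family, was the least abundant of the set in CPM. It had 44.1, 60.4 and 42.5 CPM after PBS and 28.4, 15.6 and 20.02 CPM after WGP. The groups did not overlap, and the log2 fold change was -1.20 ± 0.24 (-1.50 without PBS replicates 1 and 3). Klf9 (ENSMUSG00000033863, chromosome 19, 23141226 to 23168134), a Krüppel-like factor induced by glucocorticoids and by thyroid hormone, had 84.8, 66.6 and 72.7 CPM after PBS and 50.7, 22.4 and 43.3 CPM after WGP. All WGP libraries were below all PBS libraries, but WGP replicate 2 lay far below the other two. Its log2 fold change of -0.95 ± 0.31 was not called (-0.78 without PBS replicates 1 and 3), whereas it was called in 6 of 17 alternatives, among them DESeq2, limma-voom, no robust estimation, without WGP replicate 1 (-1.18) and without WGP replicate 2 (-0.67).

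The remaining targets changed little. Cdkn1a (ENSMUSG00000023067, chromosome 17, 29090976 to 29100727), the cell cycle inhibitor p21, had 331, 395 and 355 CPM after PBS and 321, 296 and 303 CPM after WGP. The gap between the groups was narrow, and the log2 fold change of -0.23 ± 0.08 (-0.36 without PBS replicates 1 and 3) passed in 9 of 17 alternatives. The 8 in which it was not called included those without PBS replicate 2 or 3, without WGP replicate 1, 2 or 3, without robust estimation and with a covariate for Y-linked transcripts. A gene on the other strand shares 273 exon bases with Cdkn1a, and without a stated strand setting its reads cannot be told apart.

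Tsc22d3 and Ddit4 overlapped between the groups. Tsc22d3 (ENSMUSG00000031431, chromosome X, 140539528 to 140600659) encodes GILZ, the leucine zipper protein through which glucocorticoids restrain NF-κB and AP-1. It had 792, 794 and 714 CPM after PBS and 698, 629 and 720 CPM after WGP, a log2 fold change of -0.17 ± 0.08 (-0.22 without PBS replicates 1 and 3). It was not called, except with upper quartile scaling (-0.23) and with library sizes alone (-0.27). Ddit4 (ENSMUSG00000020108, chromosome 10, 59949669 to 59951834), an inhibitor of the growth kinase complex mTORC1, had 188, 135 and 180 CPM after PBS and 174, 165 and 190 CPM after WGP. Its log2 fold change of 0.07 ± 0.12 was not called, it turned to -0.070 without PBS replicate 2 and to -0.033 with library sizes alone, and without PBS replicates 1 and 3 it was 0.39 and called higher.

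**Figure D2:**
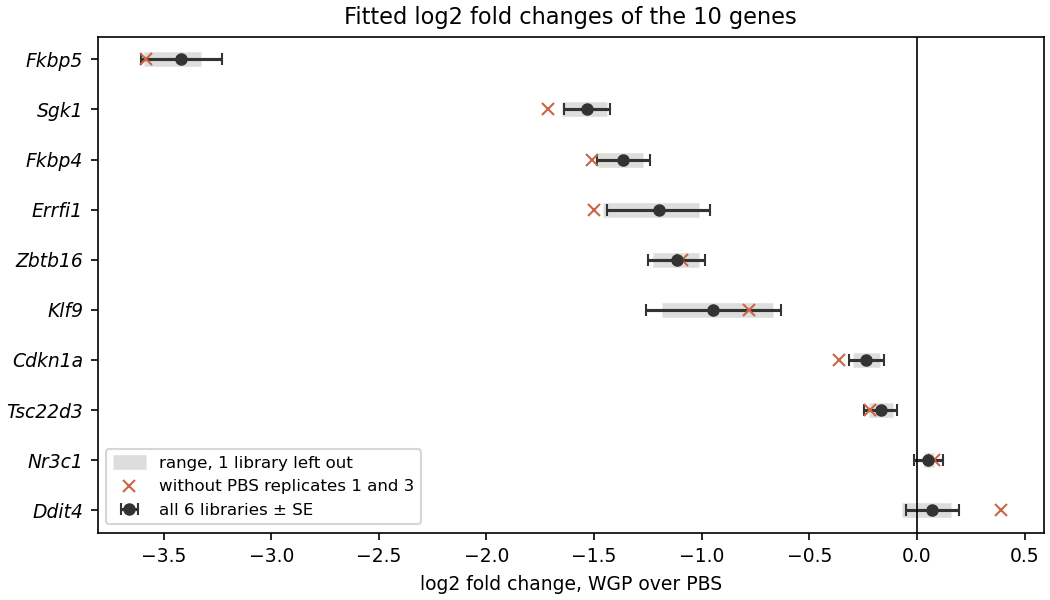
Log2 fold changes of the 10 genes, WGP over PBS, with all 6 libraries (points with SE bars), the range when any 1 library was left out (grey), and the value without PBS replicates 1 and 3 (crosses). Fkbp5 at -3.42 stands apart from the next genes, Sgk1 at -1.53 and Fkbp4 at -1.36, while Nr3c1 at 0.05 and Ddit4 at 0.07 lie beside 0.

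In CPM per kilobase of exon, Tsc22d3 was the most abundant of the set in either group (177 ± 10.5 after PBS and 157 ± 10.98 after WGP). After PBS it was followed by Sgk1 (142 ± 21.4), Cdkn1a (102 ± 9.07), Ddit4 (95.7 ± 16.4), Fkbp4 (49.3 ± 5.91), Fkbp5 (37.5 ± 8.13) and Nr3c1 (22.2 ± 0.77). Klf9 (15.5 ± 1.93), Zbtb16 (13.7 ± 1.90) and Errfi1 (13.7 ± 2.77) were lowest. The ranges of neighbours overlapped for Cdkn1a and Ddit4, for Klf9 and Zbtb16 and for Zbtb16 and Errfi1, and no other neighbours overlapped. After WGP Fkbp5 came last at 3.51 ± 0.39, below Errfi1 (5.95 ± 1.82), and Sgk1, at 49.0 ± 2.68, ranked below Ddit4 (101 ± 7.23) and Cdkn1a (86.3 ± 3.58). Nr3c1, at 23.1 ± 0.51, then exceeded both immunophilins.

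The genes whose pattern over the 6 libraries was most like that of Fkbp5 were sought among 9335 genes with a mean of at least 5 CPM, by the root mean square difference of mean-centred log2 CPM. They were the cadherin gene Cdh1 (0.228), the small heat shock protein gene Hspb1 (0.240), the phagocytic receptor gene Mertk (0.315), the transcription factor gene Egr2 (0.344) and Fblim1 (0.347). For Zbtb16 they were the Wnt pathway factor gene Tcf7l2 (0.102), the folate enzyme gene Fpgs (0.117), the ubiquitin ligase gene March8 (0.118), Nt5c3b (0.121) and the transferrin gene Trf (0.121). The log2 fold changes of the first 5 genes lay between -3.37 and -3.01 and those of the other 5 between -1.23 and -1.04. The distance includes the gap between the groups, so fold changes near those of Fkbp5 and Zbtb16 follow from the search itself. Cdh1 is also one of the epithelial markers described below.

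Beyond the immunophilins, most genes of the chaperones that fold the receptor fell. Of 18 such genes, 13 fell (72.2%, beside 15.7% of all genes), 1 rose and 4 did not pass, with a median log2 fold change of -0.80. All 5 lists of glucocorticoid signalling, this one first, were chosen with earlier results of these data known. Their shares are therefore descriptions and not independent evidence. Hsp90ab1, the constitutive Hsp90 that holds the receptor, fell from 2536 ± 294 to 1361 ± 39.6 CPM (-0.90 ± 0.09, adjusted p = 6.3e-05). Stip1, which hands the receptor from Hsp70 to Hsp90, fell from 251 ± 39.0 to 82.1 ± 12.5 CPM (-1.61 ± 0.14, adjusted p = 0.00012). St13 (-0.81 ± 0.09, adjusted p = 0.00011) and the inducible Hsp90aa1 (-1.32 ± 0.14, adjusted p = 0.00043) fell too. Cdc37, which brings kinases to Hsp90, rose by 0.31 ± 0.07 (adjusted p = 0.0055, and 0.053 without PBS replicates 1 and 3), and the Hsp70-like Hspa4 stood at 174 ± 4.44 and 182 ± 9.33 CPM. The list holds general heat shock genes, and reads of the near-identical Hspa1a and Hspa1b can be shared between them.

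Genes of receptor coregulators showed no decrease. Of 15 genes 4 rose (26.7%, beside 15.2% of all genes), none fell and 11 did not pass, with a median of 0.16. The Mediator subunit Med1 had 85.0 ± 8.02 CPM after PBS and rose to 114 ± 9.96 CPM (0.42 ± 0.09, adjusted p = 0.0066). The acetyltransferase Ep300 rose by 0.28 ± 0.07 (adjusted p = 0.011, and 0.056 without PBS replicate 1). Tbl1xr1, a subunit of corepressor complexes, rose by 0.32 ± 0.08 (adjusted p = 0.012, but 0.059 without PBS replicate 1, 0.055 with library sizes alone and 0.061 with the Y-linked covariate). Without PBS replicate 1, or without PBS replicates 1 and 3, the number that rose was 2. Ncor1, at 350 ± 15.9 and 393 ± 31.9 CPM, did not pass.

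For the supply of active hormone, H6pd, which provides the NADPH that the activating enzyme Hsd11b1 uses, had 59.8 ± 0.67 CPM after PBS and rose to 100.3 ± 4.63 CPM after WGP (0.74 ± 0.08, adjusted p = 7.6e-05). It was the only 1 of 7 tested genes of this list to pass (14.3% higher, beside 15.2% of all genes). With no filter on low counts, with DESeq2 or without WGP replicate 1, 1 gene of the list was also called lower. Hsd11b1 itself stood at 24.8 ± 3.98 and 24.4 ± 4.96 CPM (-0.03 ± 0.17, adjusted p = 0.93). Its sign turned without PBS replicate 2 (0.10) or WGP replicate 2 (0.13). The efflux pump gene Abcb1b (18.9 ± 1.69 and 16.3 ± 2.88 CPM) did not pass. Another 3 listed genes were too low to be tested.

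Other genes that glucocorticoids induce divided into some that fell and more that did not pass. Of 28 tested, 10 fell (35.7%, beside 15.7% of all genes), 1 rose and 17 did not pass, with a median of -0.53. The metallothionein Mt2 fell from 59.8 ± 19.5 to 8.57 ± 0.89 CPM (-2.80 ± 0.23, adjusted p = 0.00012) and its neighbour Mt1 from 197 ± 54.6 to 56.5 ± 7.19 CPM (-1.80 ± 0.22, adjusted p = 0.0018). Irs2, an adaptor of the insulin receptor, fell from 127 ± 17.5 to 68.6 ± 7.81 CPM (-0.89 ± 0.12, adjusted p = 0.00046), and Mertk, named above, also fell, from 166 ± 36.9 to 20.6 ± 3.72 CPM (-3.01 ± 0.21, adjusted p = 0.00014). Foxo3 rose by 0.34 ± 0.08 (adjusted p = 0.0075, and 0.053 without PBS replicates 1 and 3).

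Of the 4 most abundant genes of this list, Txnip fell and the other 3 did not pass. Txnip, which encodes an inhibitor of thioredoxin and is named here after its values were seen, fell from 915 ± 182 to 444 ± 43.3 CPM (-1.04 ± 0.15, adjusted p = 0.0019). Zfp36, which encodes the mRNA decay factor tristetraprolin, stood at 3758 ± 135 and 3620 ± 471 CPM (-0.05 ± 0.09, adjusted p = 0.70), and its sign turned without WGP replicate 1 (0.043). The MAP kinase phosphatase gene Dusp1 stood at 2797 ± 112 and 3181 ± 543 CPM (0.19 ± 0.11, adjusted p = 0.25, and 0.016 without WGP replicate 1). The clock gene Per1 stood at 623 ± 31.8 and 712 ± 131 CPM (0.19 ± 0.12, adjusted p = 0.26, and 0.026 without WGP replicate 2).

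Inflammatory genes that glucocorticoids repress were not generally higher. Of 17 tested, 7 fell (41.2%, beside 15.7% of all genes), 1 rose and 9 did not pass, with a median of -0.44. The cytokine gene Tnf fell from 88.3 ± 9.63 to 32.7 ± 4.77 CPM (-1.43 ± 0.12, adjusted p = 3.7e-05). Il1a (-1.80 ± 0.21, adjusted p = 0.00017), the collagenase Mmp13 (-3.20 ± 0.41, adjusted p = 0.00027) and the chemokine Ccl4 (-0.88 ± 0.16, adjusted p = 0.0030) fell too. The adhesion molecule Icam1 rose by 0.54 ± 0.13 (adjusted p = 0.015), and did not pass without PBS replicate 1 (0.074), PBS replicate 2 (0.072) or PBS replicates 1 and 3 (0.14). Cxcl2 (400 ± 143 and 294 ± 87.6 CPM) and Ptgs2 (297 ± 80.0 and 321 ± 115 CPM) spread widely within the groups and did not pass.

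**Figure D3:**
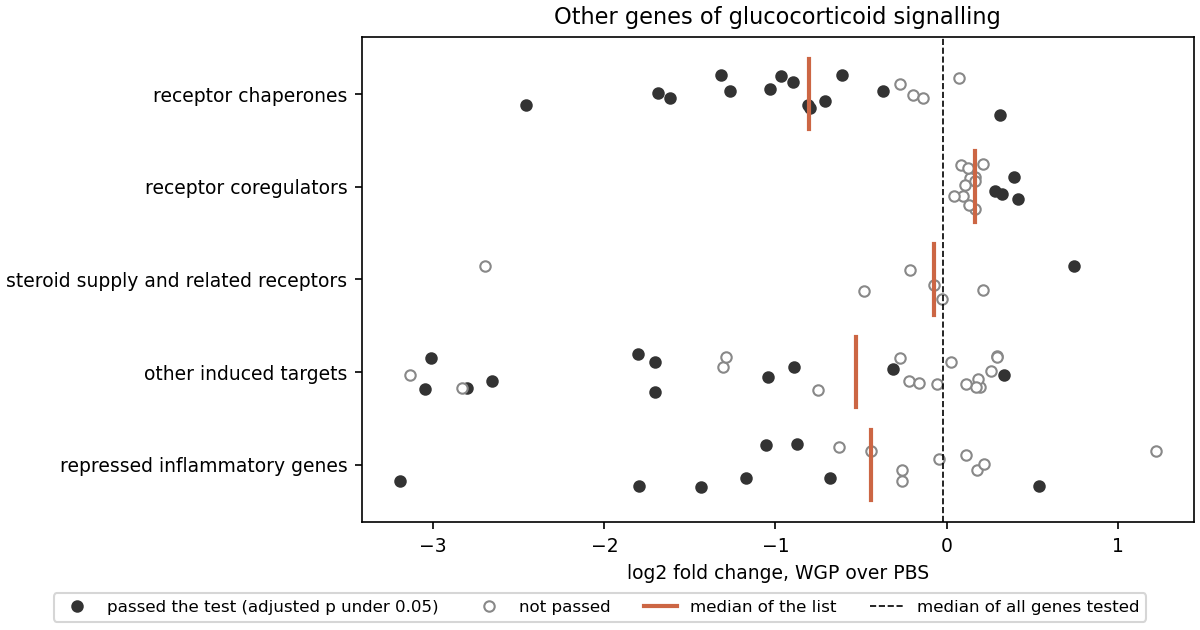
Log2 fold changes, WGP over PBS, of every tested gene of 5 lists around glucocorticoid signalling, filled where the gene passed, with the list's median (orange) and the median of all genes tested (dashed, -0.02). The chaperone list centres at -0.80, the coregulators at 0.16, and the other induced targets run from genes lower by more than 3 to genes slightly above 0.

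Markers of other cell types moved with the groups. Of 16 alveolar macrophage markers 15 fell, with a median log2 fold change of -3.26, beside -3.42 for Fkbp5 and -1.53 for Sgk1. Their sum was 7082, 8426 and 5590 CPM in PBS replicates 1, 2 and 3 and 1513, 1944 and 1741 CPM after WGP, and no marker was at 0 in any library. PBS replicate 3 was the lowest PBS library in this sum, in Y-linked transcripts, and in Fkbp5, Sgk1, Fkbp4, Zbtb16, Errfi1 and Tsc22d3. It was not the lowest in Klf9, Ddit4 or Cdkn1a, and it was the highest in Nr3c1. The epithelial and neutrophil sums were lowest in it too, whereas the remaining marker sums were lowest in other PBS libraries. Among the WGP libraries replicate 1 had the least of the alveolar macrophage sum. Fkbp5 stood at 35.6, 28.9 and 35.1 CPM in WGP replicates 1, 2 and 3, with replicates 1 and 3 nearly equal.

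All 11 classical monocyte markers rose, from sums of 4979 to 5753 CPM to sums of 11481 to 14843 CPM. Of 12 tested epithelial markers 10 fell, with a median log2 fold change of -3.59, beside -3.42 for Fkbp5. The epithelial sums were 417 to 851 CPM after PBS and 20.7 to 85.7 CPM after WGP, with Sftpd, Krt8, Krt18 and Foxj1 at 0 in WGP replicate 1. Of 10 endothelial markers 8 fell (328 to 357 and 99.5 to 124 CPM). Of 18 interstitial macrophage markers 3 rose and 4 fell (9909 to 10853 and 8417 to 9680 CPM). Of 10 neutrophil markers 1 rose (1146 to 2559 and 1474 to 2788 CPM), of 8 B cell markers 1 fell (130 to 151 and 61.9 to 114 CPM), and of 11 fibroblast and smooth muscle markers 3 fell (115 to 159 and 25.1 to 83.6 CPM). In bulk libraries fewer cells of a type and less RNA per cell cannot be told apart, and the part of these cells in the values of Fkbp5 and the other targets was not tested.

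**Figure D4:**
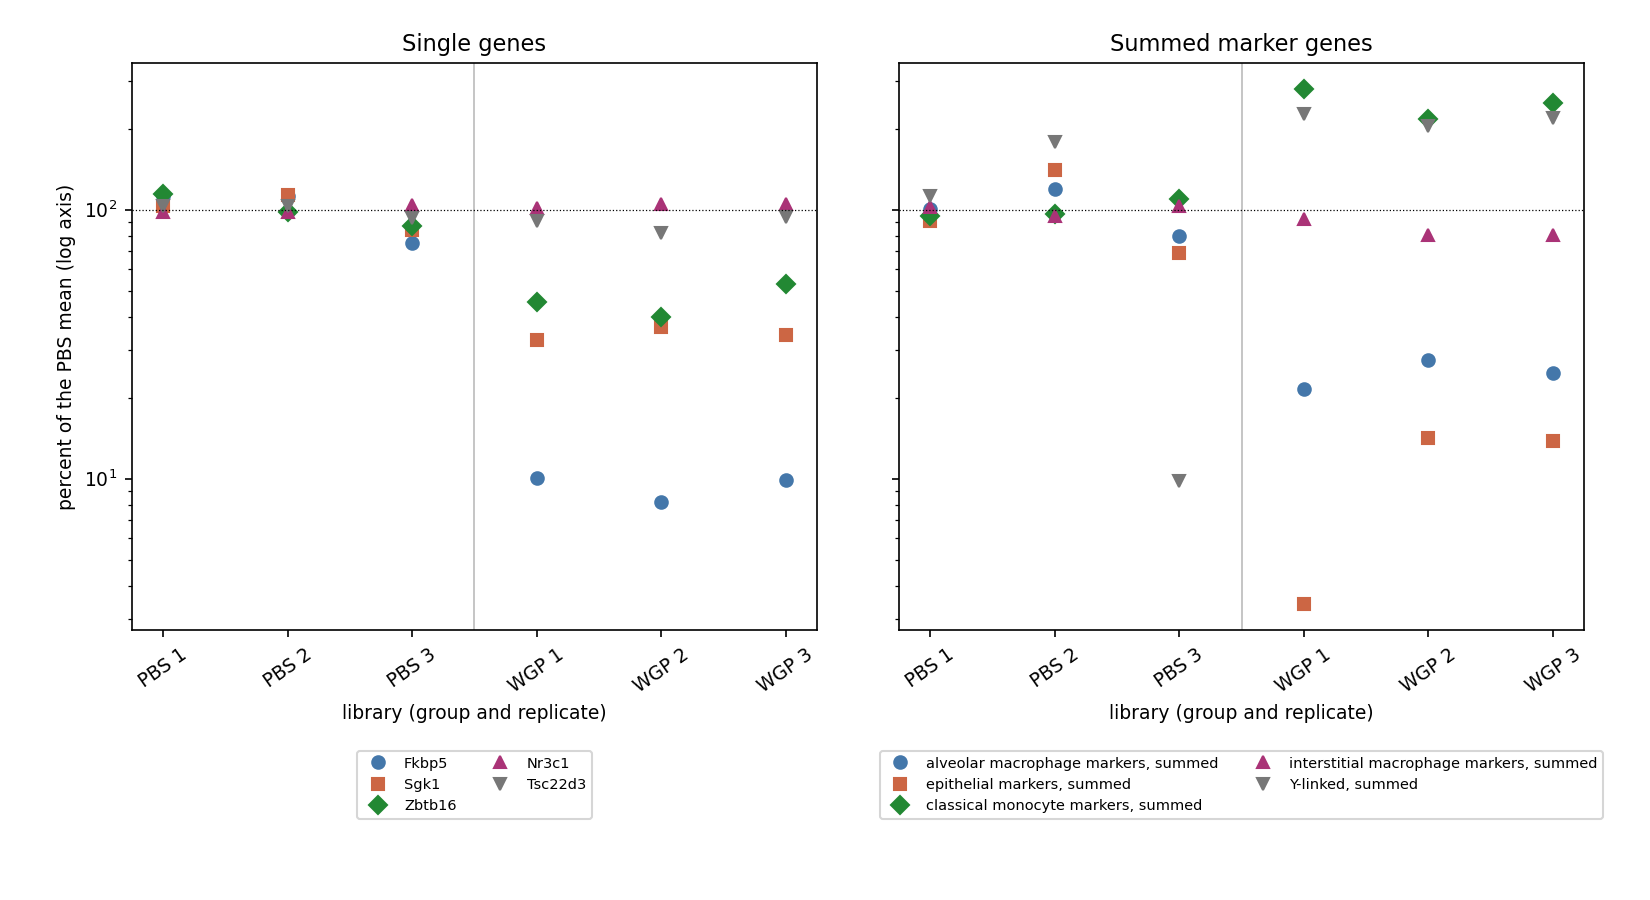
Level in each library as a percent of the PBS mean (log axis), for 5 genes of the set (left) and for summed marker genes and Y-linked genes (right). After WGP, Fkbp5 lies at 8.15% to 10.03%, the alveolar macrophage sum at 21.5% to 27.6% and the classical monocyte sum at 218% to 282%, while Nr3c1 lies at 101% to 105%. Chil3 alone gives 3476 of the 7033 CPM of the alveolar macrophage sum after PBS. The epithelial sum lies at 3.41% to 14.1% after WGP. The median log2 fold change is -3.26 for the 16 alveolar macrophage markers and -3.59 for the 12 tested epithelial markers, beside -3.42 for Fkbp5.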

How the data were processed

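PolyA-selected RNA of 3 PBS and 3 WGP libraries was sequenced, per the labels. The authors deposited whole-number read counts per Ensembl gene without normalization. HTSeq 0.10.0, FastQC 0.10.1 and the builds GRCm38 and mm10 are named, per the submitters' processing notes. Not given in the sources used here are the aligner, annotation and strand setting.

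GENCODE M21 (GRCm38) gave symbols and exon lengths for 21939 of 21965 identifiers. The 2 groups were compared with edgeR 4.0.16 (R 4.3.3): filterByExpr, TMM, estimateDisp and glmQLFit with robust = TRUE, a two-sided quasi-likelihood F test, and Benjamini-Hochberg adjustment over 12305 genes with a threshold of 0.05. The SE is the size of the log2 fold change divided by the square root of F. The fit was also run on simulated counts, in which a far smaller share of genes changed than passed here. That run therefore does not test the scaling at the share of changes found here. Libraries of a group differed by a chi-square of 14 to 26 per degree of freedom, so none repeated another. With 3 libraries a group, an exact test of single values cannot go below a two-sided p of 0.1.

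The members and gene lists were chosen with earlier results of these data known. Named were the 10 genes, up to 4 passing genes of each list per direction by smallest p, the up to 3 most abundant not passing (some named by this rule are not reported here), and the 5 genes most like Fkbp5 and Zbtb16 (log2 CPM, prior count 2), passing over predicted models. The named interstitial macrophage markers were picked after their values were seen. Alternatives were 3 other scalings, 2 other filters, DESeq2 1.42.0, limma-voom (limma 3.58.1), no robust estimation, a replicate block, a Y-linked covariate and left-out libraries.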

Additional observations from a re-analysis of the deposited data

How the results depend on the processing

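Under 17 alternatives the number of the 10 genes called lower stayed between 5 and 7, that of chaperones that fell between 10 and 15, of other induced targets that fell between 8 and 12, and of repressed genes that fell between 6 and 7. The number of all changed genes, 3809, was 1820 without PBS replicates 1 and 3 and ran from 2491 to 3717 with any 1 library left out. The number of coregulators that rose, 4, was 2 without PBS replicates 1 and 3 and ran from 2 to 5 with any 1 library left out. With 1 PBS library left, its spread is assumed to be that of the WGP group. The cause of these shifts was not tested, beyond the smaller number of libraries. The 10 genes and the lists were chosen with results of these same libraries known. Counts that stay alike when those libraries are fitted again are therefore not independent evidence of a direction. In the main fit 15.7% of all genes tested were called lower.

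Of the genes that did not pass, some changed sign. Nr3c1 was at -0.0071 with upper quartile scaling and at -0.048 with library sizes alone, where Ddit4 was at -0.0331 and Hspa4 at -0.0325. With the Y-linked covariate and without PBS replicates 1 and 3, Il1b was at -0.067 and -0.16 and Ptgs2 at -0.19 and -0.20. With any 1 library left out, Ddit4 ran from -0.070 to 0.16, Hsd11b1 from -0.16 to 0.13, Il1b from -0.11 to 0.39, Ptgs2 from -0.14 to 0.37 and Zfp36 from -0.14 to 0.043.

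Replicate numbers are shared between the groups. Deviations from the group means of same-numbered libraries correlated at -0.063, -0.081 and -0.046, and no library correlated best with its own number. These values gave no sign that the numbers pair the libraries, but with 3 libraries a group they cannot exclude it. With the replicate number as a block, 3185 genes changed and 6 of the 10 genes were called lower, with Klf9 in place of Cdkn1a. Depth limits little here, since each of the 10 genes had at least 295 counts in every library.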

Other observations

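Cd163 and Stab1, scavenger receptor genes of the induced list, varied widely among the WGP libraries. Cd163, the haemoglobin scavenger receptor, had 214, 153 and 225 CPM in PBS replicates 1, 2 and 3 and 143, 54.3 and 41.6 CPM in WGP replicates 1, 2 and 3. Stab1, another scavenger receptor, had 291, 234 and 304 CPM and 194, 79.4 and 66.1 CPM in the same order. Neither passed the test (adjusted p = 0.16 and 0.12, edgeR's quasi-likelihood test), although all WGP libraries were below all PBS libraries. Among the WGP libraries the interstitial macrophage markers C1qa (315, 203 and 105 CPM in replicates 1, 2 and 3) and Lyve1 (138, 75.2 and 37.0 CPM) were also highest in replicate 1. The mineralocorticoid receptor gene Nr3c2, which binds the same hormones, was at 0.95 to 2.90 CPM after PBS and at 0 to 0.79 CPM after WGP and did not pass (adjusted p = 0.058). Nos2, too low to be tested, was at 18.6 CPM in WGP replicate 2 and at 0.98 CPM or less in the other 5 libraries. These genes were chosen after their values were seen.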
